A study of Homo sapiens with 12 samples.

Results

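The nuclear genes of the respiratory chain were followed across 4 groups of NUGC-4 cells, a line from a human diffuse gastric cancer. Members were taken by symbol: subunits of complex I (NDUFA, NDUFB, NDUFC, NDUFS and NDUFV), complex II (SDHA to SDHD), complex III (UQCR genes and CYC1), complex IV (COX4 to COX8) and ATP synthase (ATP5). Of 182 matching symbols, 95 named as pseudogenes were left out, and of the remaining 87 genes 80 had a mean of at least 1 CPM (a gene's counts scaled to a common library size) over the 12 libraries, out of 60623 rows in the table. By complex they were 36 genes of complex I, 4 of complex II, 10 of complex III, 11 of complex IV (NDUFA4, a subunit of that complex despite its name, is counted here), 18 of ATP synthase, and COX7A2L, which acts in supercomplex assembly. All 80 passed the low-count filter of the test. The 7 genes under the minimum were COX4I2, COX6A2, COX6B2, COX7A1, COX7B2, COX8C and ATP5MGL.

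The libraries are bulk RNA-seq of wild-type NUGC-4 cells after 24 h without drug (control), with 1 µM IN10018, an inhibitor of focal adhesion kinase, with 1 µM crizotinib, an inhibitor of the ROS1, MET and ALK kinases, or with both drugs at those doses (the combination), with 3 libraries per group. The series title places the study in the treatment of CDH1-deficient cancers with FAK and ROS1 inhibitors. All groups are 1 cell line at 1 dose and 1 time. Whether replicates were grown as separate cultures is not given in the labels, and a p-value here reflects only the scatter among the sequenced libraries. Of the epithelial markers, KRT8 and KRT18 were at 1118 CPM and 531 CPM or more in every library and EPCAM at 15.5 to 21.1 CPM, while CDH1, the E-cadherin gene, was at 2.32 to 5.85 CPM and KRT19 at 0 in all 12 libraries. A free-text label on every sample names adipogenic differentiation; ADIPOQ and LPL were at 0, while FABP4 was at 60.1 to 129 CPM. Of the fibroblast markers, the collagen gene COL3A1 was at 5058 to 6641 CPM, while COL1A1 was at 0.747 to 3.74, COL1A2 at 0 to 0.228, DCN at 1.25 to 2.34, LUM at 0.611 to 1.31 and PDGFRB at 0.744 to 1.78 CPM. Genes of muscle and heart (MYH7, TNNT2, ACTN2) were at 0.

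As background, complexes I and II feed electrons from NADH and succinate into ubiquinone, complex III passes them to cytochrome c, and complex IV hands them to oxygen. Complexes I, III and IV pump protons across the inner mitochondrial membrane, and ATP synthase uses the resulting gradient to make ATP. Most subunits are encoded in the nucleus and imported, a smaller hydrophobic set is encoded by mitochondrial DNA, and complex II is the only one of these complexes made of nuclear subunits alone. Nuclear respiratory factor 1 (NRF1), the ETS factor GABP and YY1 are known regulators of many of the nuclear genes.

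Library totals ranged from 13691844 to 20489708 counts, so that 1 CPM stood for about 13.7 to 20.5 reads. Reads of the 80 genes made up 0.563% to 0.578% of all reads in control, 0.538% to 0.583% with IN10018, 0.627%, 0.802% and 0.672% in crizotinib replicates 1 to 3, and 0.782%, 0.867% and 0.715% in the combination. Reads of the 13 mitochondrially encoded subunit genes made up 8.22% to 8.88% in control, 9.96%, 3.40% and 6.88% in the crizotinib libraries and 4.61%, 2.69% and 4.48% in the combination libraries. That share was below control in all combination libraries and in crizotinib replicates 2 and 3, while crizotinib replicate 1 was above control in both shares. Crizotinib replicate 2 differed most from its group, at 59.6 on a first principal component holding 65.1% of the variance, against -4.08 and 10.9 for the other two, and lay beside combination replicate 1 at 58.4. Replicates of a group always differed by more than counting noise, with a chi-square per degree of freedom of 2.32 to 5.71 within the control and IN10018 groups and 8.60 to 104 within the crizotinib and combination groups. The summed level of the epithelial markers was 1973 to 2108 CPM in control and 2350 to 3575 CPM with the combination, that of the adipocyte markers 70.5 to 78.4 CPM and 107 to 137 CPM, that of the leukocyte markers 19.0 to 23.6 CPM and 28.4 to 33.8 CPM, and that of the fibroblast markers 5666 to 6243 CPM and 5063 to 5989 CPM. Their part in the results below was not tested. In bulk RNA a change in the number of cells of a kind and a change in RNA per cell cannot be told apart.

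**Figure D1:**
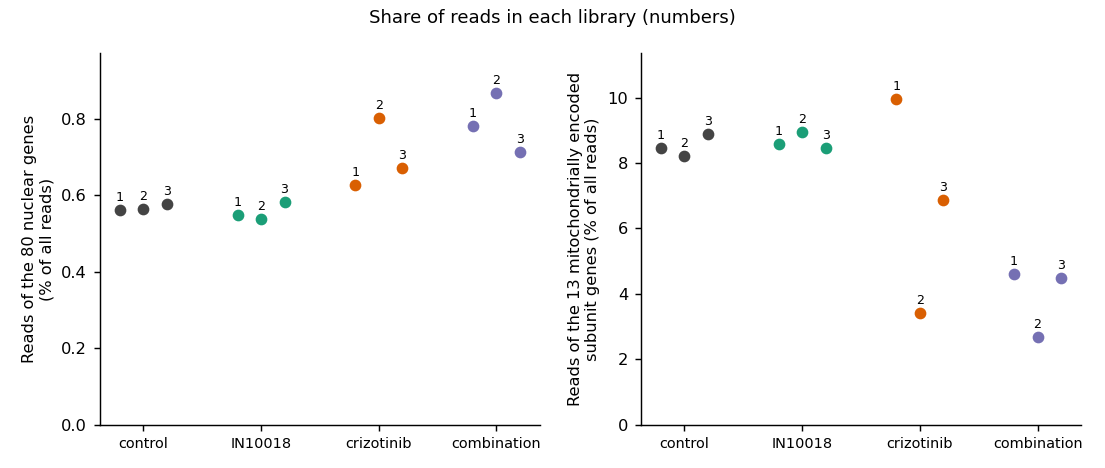
Share of all reads (percent, y axis) taken by the 80 nuclear genes (left) and by the 13 mitochondrially encoded subunit genes (right) in each of the 12 libraries, numbered by replicate within each group on the x axis. The nuclear share is lowest in control and IN10018 (0.538% to 0.583%) and highest in combination replicate 2 (0.867%), where the mitochondrial share is lowest (2.69%).

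In control cells the median level of a member was 45.3 CPM, from 0.843 CPM for ATP5ME to 490 CPM for ATP5F1B, and 12 members were under 10 CPM. Per length of exon, as RPKM (CPM divided by exon length in kilobases), the highest were ATP5F1B, the catalytic beta subunit of ATP synthase, at 211 ± 4.07 (SD, n = 3), COX6B1, a small subunit of complex IV, at 145 ± 3.25, and ATP5PB, of the ATP synthase stalk, at 97.7 ± 6.69. NDUFA11, a membrane subunit of complex I, was the lowest at 0.252 ± 0.018 RPKM. Reads of 24 members share exon bases with another gene on the same strand, and their median control level was 24.4 CPM against 54.9 CPM for the other 56. The largest shared parts were those of COX8A (34.5% of exon bases), NDUFB8 (33.8%), NDUFA7 (32.3%), NDUFV2 (28.4%) and NDUFA13 (21.0%). Of the 12 members under 10 CPM, 7 are among those 24. Whether the counting of shared reads affected their levels was not tested. For 45 members the annotation names at least 1 pseudogene copy, which can also take or lend reads.

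The paralogs of complex IV that are used in particular tissues were at or near 0, apart from COX6B2. COX6A2, the heart and muscle form of COX6A, and COX7B2 and COX8C, known from testis, had 0 reads in all 12 libraries together, which allows up to 0.0152 CPM (3 counts over the summed libraries, counting error only). COX4I2, the form linked to low oxygen, had 1 read and COX7A1, the muscle form, 19 reads. COX6B2 had 176 reads in all, a mean of 0.92 CPM, just under the minimum for members. The broadly expressed forms were all present: COX4I1 was at 185 to 198 CPM in control, COX6B1 at 132 to 138, COX7B at 101 to 121, COX7A2 at 30.3 to 31.7, COX8A at 14.1 to 17.6 and COX6A1 at 10.5 to 12.4.

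With the combination, 44 of the 80 genes rose and 13 fell against control, at a Benjamini-Hochberg adjusted p under 0.05 in edgeR's quasi-likelihood test. Of all 17096 genes tested, 33.7% rose and 29.1% fell. The median log2 fold change of the members was 0.41, against 0.10 over all genes tested and -0.06 over protein-coding genes. Complex I held most of the rises, with 24 higher and 4 lower of 36, while complex II had none higher and 3 lower of 4. The 3 combination libraries lay wholly above the 3 control libraries for 45 members and wholly below for 15, against 37.8% and 33.2% of all genes. Scaled by library totals in place of TMM, the all-gene median moved from 0.10 to 0.27 and the members' median from 0.41 to 0.59. With an offset for the GC content and length of each gene, the split was 34 higher and 20 lower, where 25% and 29.9% of all genes were called, with 39 of the 57 calls kept in the same direction.

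**Figure D2:**
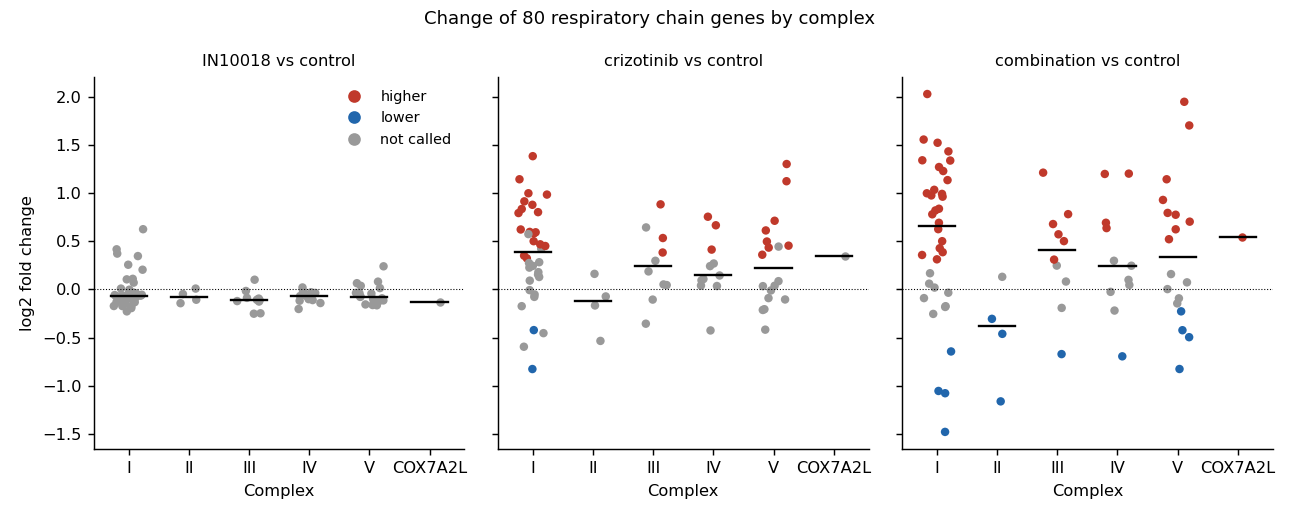
log2 fold change against control (y axis) of each of the 80 genes by complex (x axis), for IN10018, crizotinib and the combination, where each point is a gene, coloured by its call at an adjusted p under 0.05, and black bars mark medians. No point is called with IN10018, and with the combination complex I spans -1.48 to 2.03 with a median of 0.66 while the complex II median is -0.38.

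The promoters of 6 genes are shown: the 3 members with the largest falls and the 3 with the largest rises under the combination among called members with a mean log2 CPM of at least 1 and a RefSeq promoter entry. Each runs from 250 bases before to 50 bases after the start that RefSeq gives the gene, which can differ from the GENCODE 29 gene start printed further on, as for NDUFA1 and SDHD. The letters run 5′ to 3′ on the gene's strand, on GRCh38.p14. Capitals mark matches on either strand to motifs of NRF1 (GCGCANGCG), ETS factors (CCGGAAG) or YY1 (AAGATGG). NDUFB4, SDHD and NDUFA12 fell, and NDUFA11, NDUFA1 and NDUFB7 rose. Their windows are chr3:120596086-120596385 (+), chr11:112086623-112086922 (+), chr12:95003648-95003947 (-), chr19:5903741-5904040 (-), chrX:119871582-119871881 (+) and chr19:14572017-14572316 (-), in that order.
NDUFB4: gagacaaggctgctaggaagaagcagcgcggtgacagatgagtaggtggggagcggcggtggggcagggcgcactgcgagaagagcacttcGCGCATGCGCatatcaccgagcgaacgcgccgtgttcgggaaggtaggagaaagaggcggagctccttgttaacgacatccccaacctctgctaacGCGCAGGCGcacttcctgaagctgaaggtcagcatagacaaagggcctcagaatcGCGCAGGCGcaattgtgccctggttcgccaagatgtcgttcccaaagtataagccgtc
SDHD: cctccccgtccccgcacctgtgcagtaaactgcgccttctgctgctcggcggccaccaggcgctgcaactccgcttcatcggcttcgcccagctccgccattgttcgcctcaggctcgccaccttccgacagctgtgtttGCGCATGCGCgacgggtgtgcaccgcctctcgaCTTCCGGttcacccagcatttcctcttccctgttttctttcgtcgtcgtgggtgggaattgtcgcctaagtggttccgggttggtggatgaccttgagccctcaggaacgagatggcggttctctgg
NDUFA12: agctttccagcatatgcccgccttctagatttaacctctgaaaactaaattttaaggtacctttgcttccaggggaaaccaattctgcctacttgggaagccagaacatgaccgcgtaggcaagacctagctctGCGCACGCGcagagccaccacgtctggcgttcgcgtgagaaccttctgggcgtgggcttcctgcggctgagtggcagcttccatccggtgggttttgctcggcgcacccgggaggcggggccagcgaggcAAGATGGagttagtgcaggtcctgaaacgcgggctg
NDUFA11: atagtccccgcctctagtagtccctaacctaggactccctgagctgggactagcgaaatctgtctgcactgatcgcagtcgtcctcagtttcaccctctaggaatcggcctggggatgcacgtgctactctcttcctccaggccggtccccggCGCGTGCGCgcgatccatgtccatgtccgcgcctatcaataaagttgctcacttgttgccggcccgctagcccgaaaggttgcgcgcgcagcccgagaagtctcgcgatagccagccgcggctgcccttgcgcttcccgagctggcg
NDUFA1: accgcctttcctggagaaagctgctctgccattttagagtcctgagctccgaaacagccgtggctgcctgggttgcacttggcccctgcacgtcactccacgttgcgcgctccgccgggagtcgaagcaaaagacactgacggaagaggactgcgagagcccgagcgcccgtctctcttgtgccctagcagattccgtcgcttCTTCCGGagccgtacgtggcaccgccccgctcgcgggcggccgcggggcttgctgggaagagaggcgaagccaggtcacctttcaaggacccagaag
NDUFB7: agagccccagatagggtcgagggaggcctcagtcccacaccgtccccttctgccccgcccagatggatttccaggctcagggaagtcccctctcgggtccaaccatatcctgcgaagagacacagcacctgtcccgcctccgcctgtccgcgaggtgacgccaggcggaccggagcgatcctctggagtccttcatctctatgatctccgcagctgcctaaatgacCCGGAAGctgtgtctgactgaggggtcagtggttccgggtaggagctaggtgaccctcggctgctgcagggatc

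NDUFB4, the member that fell furthest, carried the NRF1 motif at 3 places, and NDUFA11, which rose furthest, at 1. SDHD held NRF1 and ETS matches and NDUFA12 NRF1 and YY1 matches, while NDUFA1 and NDUFB7 each held an ETS match. Of the 80 members, 66 had a RefSeq promoter, and 42 of these held at least 1 of the 3 motifs, with no overlap between different motifs (a palindromic NRF1 run matches itself on both strands). The NRF1 motif was in 21 of 66 (31.8%) against 7.52% of 35116 RefSeq promoters of the same length, the ETS motif in 20 (30.3%) against 10.3%, and the YY1 motif in 16 (24.2%) against 5.84%. Those RefSeq promoters were not matched to the members in gene type, expression or GC content, and the part of these in the contrast was not tested. Among the members that rose with the combination the NRF1 motif was in 11 of 34, the ETS motif in 12 and the YY1 motif in 7. Among those that fell the NRF1 and YY1 motifs were each in 5 of 11 and the ETS motif in 4. Among the 21 not called the NRF1 motif was in 5, and the ETS and YY1 motifs were each in 4. A match describes the letters in this window and does not show binding. Members with no entry included ATP5F1B, ATP5F1D, ATP5MC3, ATP5MF, COX6C, CYC1, NDUFB5, NDUFB9, NDUFC2, NDUFS5, SDHC, UQCRB and UQCRHL.

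Complex I takes electrons from NADH through a flavin and a chain of iron-sulfur clusters. All 7 nuclear core subunits were called with the combination, 5 higher and 2 lower, and of the 29 accessory subunits 19 rose and 2 fell. Counts by complex or subunit group, here and below, stand beside 33.7% of all genes higher and 29.1% lower with the combination. Complex I genes lie on many chromosomes, and coordinates below are those of GENCODE 29 on GRCh38.

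NDUFA11, an accessory membrane subunit (ENSG00000174886, chr19:5891276-5904006), was at 1.12, 1.27 and 1.28 CPM in control replicates 1 to 3 and at 5.28, 6.45 and 3.42 CPM in the combination. The groups did not overlap, and the gene rose by 2.03 ± 0.26 on the log2 scale (SE, adjusted p = 7.16e-05), the largest change among the 80. Its level was low and its exons share bases with a neighbouring gene on the same strand. NDUFS8, a core iron-sulfur subunit (chr11:68030617-68036644), was at 51.9, 56.7 and 51.1 CPM in control and 128, 194 and 110 CPM in the combination. All 3 combination libraries were above control, with replicate 2 highest, and the log2 change was 1.43 ± 0.27 (adjusted p = 0.000468). NDUFA1, a small membrane subunit (chrX:119871487-119876662), was at 31.2, 31.5 and 39.9 CPM in control and 104, 143 and 55.0 CPM in the combination. It rose by 1.56 ± 0.29 (adjusted p = 0.000487), with replicate 3 the lowest of its group and still above control.

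NDUFB7, an accessory subunit (chr19:14566078-14572062), was at 50.1, 43.6 and 48.7 CPM in control and 114, 201 and 94.1 CPM in the combination, a log2 change of 1.52 ± 0.32 (adjusted p = 0.00113). With an offset for GC content and length the change was 0.19 (adjusted p = 0.40) and was not called. Replicate 2 was again the highest, and no combination library reached down to the control range. NDUFA3 and NDUFA13, accessory subunits from chromosome 19, each changed by 1.34 (adjusted p = 0.000186 and 0.000261), NDUFC2 by 1.27 (0.000807) and NDUFB11 by 1.23 (0.000476). The exons of NDUFC2 overlap those of the read-through gene NDUFC2-KCTD14 on the same strand. NDUFA1, NDUFA3, NDUFB11 and NDUFC2 overlap a gene on the opposite strand, and whether the counting used strand is not given in the sources used here.

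The 4 complex I genes that fell differ in role. NDUFB4, an accessory membrane subunit (ENSG00000065518, chr3:120596309-120602500), was at 33.3, 33.2 and 33.4 CPM in control and 13.6, 8.88 and 13.2 CPM in the combination. The control libraries were nearly equal, the combination libraries were all below them, and the log2 change was -1.48 ± 0.30 (adjusted p = 0.000869). The annotation names 12 pseudogenes of NDUFB4, the sharing of whose reads is unknown. NDUFA12, an accessory subunit (chr12:94897055-95003770), was at 16.5, 15.5 and 15.9 CPM in control and 8.96, 4.85 and 8.74 CPM in the combination. It fell by 1.08 on the log2 scale (SE 0.26, adjusted p = 0.00248), with no overlap.

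The module that takes up electrons from NADH is built of NDUFV1, NDUFV2 and NDUFS1, and the 3 genes did not move together. NDUFV1, the flavin-binding subunit, named here after its values were seen, was at 86.5, 87.4 and 88.6 CPM in control and 147, 232 and 133 CPM in the combination, a rise of 0.96 ± 0.22 (adjusted p = 0.00212). NDUFS1, the largest core subunit (chr2:206114817-206159603), was at 297, 276 and 293 CPM in control and 171, 165 and 217 CPM in the combination, a change of -0.64 ± 0.11 (adjusted p = 0.0003). NDUFV2 (chr18:9102630-9134345) was at 3.96, 7.73 and 5.32 CPM in control and 2.97, 2.29 and 2.93 CPM in the combination, a change of -1.05 ± 0.24 (adjusted p = 0.00199). Each gene had its 2 groups apart, NDUFV1 upward and the other 2 downward. NDUFV2 was measured at a low level, and 28.4% of its exon bases are shared with another gene on the same strand. With the GC and length offset the change of NDUFS1 was -0.12 (adjusted p = 0.22) and was no longer called, while NDUFV1 and NDUFV2 kept their calls.

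Complex II, succinate dehydrogenase, is both a respiratory complex and an enzyme of the citric acid cycle, and its 4 genes included no rise. SDHD, a membrane anchor (ENSG00000204370, chr11:112086773-112120013), was at 37.3, 34.3 and 40.7 CPM in control and 20.4, 13 and 16.6 CPM in the combination. The log2 change was -1.16 ± 0.25 (adjusted p = 0.00142), and all combination libraries were below control. SDHC, the other anchor (chr1:161314257-161375340), was at 124, 114 and 122 CPM in control and 91.7, 72.5 and 96.9 CPM in the combination, a change of -0.46 ± 0.12 (adjusted p = 0.00385).

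SDHB, the iron-sulfur subunit (chr1:17018722-17054170), was at 68.5, 64.2 and 69.8 CPM in control and 53.1, 50.2 and 60.5 CPM in the combination, a change of -0.31 ± 0.10 (adjusted p = 0.0176). The SDHB call was lost without control replicate 1 (adjusted p = 0.0544) or combination replicate 1 (0.0595). SDHA, the catalytic flavoprotein (chr5:218241-256700), was at 16.3, 17.9 and 17.9 CPM in control and 18.1, 21.9 and 17.1 CPM in the combination, and its log2 change of 0.13 ± 0.13 (adjusted p = 0.40) was not called, with overlapping groups. With the GC and length offset the fall of SDHC was not seen (log2 change 0.05), while SDHD (-0.95) and SDHB (-0.50) stayed lower. SDHD and SDHC overlap genes on the opposite strand (TIMM8B and CFAP126).

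**Figure D3:**
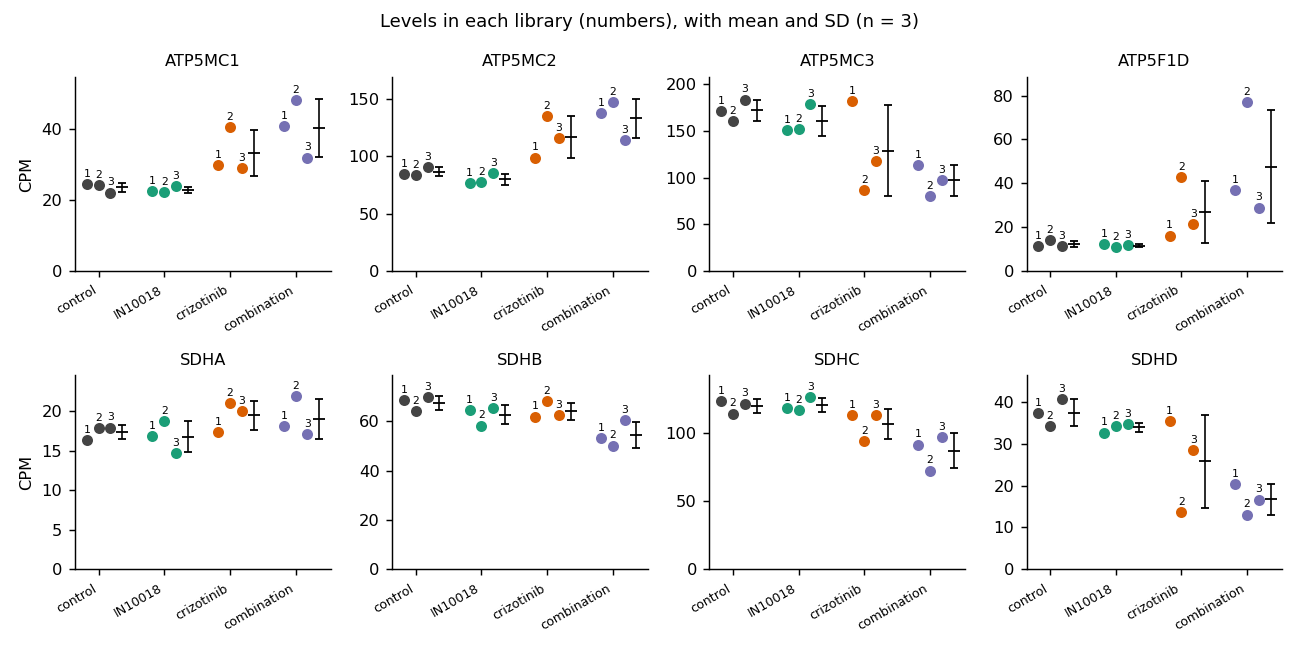
Level in CPM (y axis, from 0) of 4 ATP synthase genes (top) and the 4 complex II genes (bottom) in each library, numbered by replicate, for the 4 groups on the x axis, with the mean and SD (n = 3) beside each group. ATP5MC1, ATP5MC2 and ATP5F1D are higher and ATP5MC3, SDHB, SDHC and SDHD lower in all 3 combination libraries than in control, while the SDHA groups overlap.

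In complex III, 6 of 10 genes rose and 1 fell with the combination. UQCR11, a small accessory subunit (chr19:1597172-1605490), was at 6.80, 6.65 and 7.44 CPM in control and 14, 20.6 and 14.1 CPM in the combination, a rise of 1.21 ± 0.22 (adjusted p = 0.000424). The core subunits moved apart. UQCRC2 (chr16:21952660-21983660) was at 172, 169 and 179 CPM in control and 115, 87.2 and 123 CPM in the combination and changed by -0.67 ± 0.14 (adjusted p = 0.000845). UQCRC1, its core partner, named after its values were seen, was at 141, 140 and 143 CPM in control and 214, 306 and 209 CPM in the combination and rose by 0.78 ± 0.19 (adjusted p = 0.00302). CYC1, cytochrome c1, was at 192, 171 and 189 CPM in control and 193, 208 and 183 CPM in the combination, an uncalled difference of 0.08 ± 0.09 (adjusted p = 0.447). With the GC and length offset it was called lower, at -0.94 (adjusted p = 7.0e-05).

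UQCRH, the hinge subunit, rose by 0.31 ± 0.10 (adjusted p = 0.0154), from 79.2, 77.4 and 81.5 CPM to 102, 105 and 88.1 CPM, but with the offset it was at -0.13 and not called. Its near-copy UQCRHL rose by 0.68 ± 0.27 (adjusted p = 0.0389) from 1.72, 1.45 and 2.76 CPM to 2.91, 3.95 and 2.81 CPM, and reads of the pair may be shared. The UQCRH call was lost without control replicate 2 (adjusted p = 0.0593) or 3 (0.0834) or combination replicate 1 (0.0568) or 2 (0.0657). The UQCRHL call was lost without control replicate 1 (0.11) or 2 (0.158) or combination replicate 1 (0.0516) or 2 (0.161).

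In complex IV, 4 of 11 genes rose and 1 fell, where 33.7% of all genes rose and 29.1% fell. COX4I1, a regulatory subunit (ENSG00000131143, chr16:85798633-85807044), was at 188, 185 and 198 CPM in control and 401, 574 and 335 CPM in the combination, a rise of 1.20 ± 0.21 (adjusted p = 0.000311). COX6B1 (chr19:35648223-35658861) was at 137, 132 and 138 CPM in control and 219, 245 and 168 CPM in the combination, a rise of 0.64 ± 0.14 (adjusted p = 0.00133). Both had all combination libraries above control, but with the GC and length offset COX4I1 stayed higher by 1.30 while COX6B1 was at -0.19 and not called. NDUFA4 (chr7:10931951-10940256) was at 108, 106 and 115 CPM in control and 77.5, 58.8 and 66.9 CPM in the combination, a change of -0.69 ± 0.19 (adjusted p = 0.00678), with no overlap. With the offset it was at -0.35 (adjusted p = 0.0534) and not called. COX6A1, COX7A2, COX7B and COX8A had log2 changes of 0.25, 0.05, -0.22 and 0.30, none of them called, but with the offset COX8A was called lower at -0.76. COX7A2L, the supercomplex factor (chr2:42333546-42425088), rose by 0.54 ± 0.13 (adjusted p = 0.00311), from 97.5, 96.5 and 105 CPM to 144, 151 and 140 CPM.

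In ATP synthase, 9 of 18 genes rose and 4 fell. The c subunit forms the rotating ring in the membrane, and its identical mature protein comes from 3 genes, ATP5MC1, ATP5MC2 and ATP5MC3, which went different ways. ATP5MC1 (chr17:48892765-48895871) was at 24.5, 24.2 and 22.1 CPM in control and 41.0, 48.2 and 32.0 CPM in the combination, a rise of 0.78 ± 0.16 (adjusted p = 0.000808). ATP5MC2 (chr12:53632726-53677408) was at 84.9, 83.5 and 91.0 CPM in control and 138, 147 and 115 CPM in the combination, a rise of 0.63 ± 0.13 (adjusted p = 0.000793). ATP5MC3 (ENSG00000154518, chr2:175176258-175184607) was at 172, 161 and 184 CPM in control and 114, 80.2 and 96.9 CPM in the combination, a change of -0.83 ± 0.21 (adjusted p = 0.00354). No control library overlapped the combination for any of the 3 genes. Per length in control, ATP5MC3 was at 25.4 RPKM, ATP5MC2 at 21.7 and ATP5MC1 at 9.02. With the GC and length offset ATP5MC1 (0.64) and ATP5MC2 (0.65) kept their calls, and ATP5MC3 was at -0.32 (adjusted p = 0.085) and not called. The annotation names 7 pseudogenes of ATP5MC1 and 3 of ATP5MC2.

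Of the 5 genes of the F1 head, which holds the catalytic sites and the rotor stalk, 2 rose and 1 fell, against 33.7% and 29.1% of all genes. ATP5F1D, the delta subunit of the rotor (ENSG00000099624, chr19:1241746-1244826), was at 11.4, 14.1 and 11.4 CPM in control and 36.9, 77.0 and 28.8 CPM in the combination, a rise of 1.95 ± 0.36 (adjusted p = 0.000478). Its combination libraries were widely spread but all above control, and with the GC and length offset the rise was 0.91. ATP5F1B, the catalytic beta subunit, was at 481, 491 and 499 CPM in control and 438, 429 and 462 CPM in the combination, an uncalled difference of -0.14 ± 0.09 (adjusted p = 0.163) that with the offset was called, at -0.50 (adjusted p = 0.00026). The alpha, gamma and epsilon subunits, named to complete the 5, had log2 changes of 0.00 (ATP5F1A, not called, but higher by 0.35 with the offset), -0.42 (ATP5F1C, lower) and 0.93 (ATP5F1E, higher). ATP5PB, of the peripheral stalk, was at 321, 314 and 356 CPM in control and 291, 259 and 296 CPM in the combination, a change of -0.23 ± 0.09 (adjusted p = 0.0441). That call was lost without any of 8 libraries: control replicate 1 or 3, any IN10018 replicate, crizotinib replicate 3, or combination replicate 1 or 2, with adjusted p between 0.055 and 0.114, and with the offset (-0.02). ATP5IF1, the inhibitor of ATP hydrolysis by the enzyme, was at 44.9 to 57.3 CPM in control and 45.8 to 58.5 CPM in the combination, an uncalled difference of 0.07 ± 0.13 (adjusted p = 0.63).

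IN10018 alone changed none of the 80 genes at an adjusted p under 0.05 in edgeR's test, against 0.345% of all genes higher and 0.158% lower. The median log2 fold change of the members was -0.07, against -0.02 over all genes and -0.06 over protein-coding genes. At an unadjusted p under 0.05 there were 3 genes (3.75%, against 11% of all genes): NDUFB8 (0.63), UQCRFS1 (-0.25) and COX5A (-0.20). DESeq2 and limma-voom, fitted to the same 12 libraries, also called 0. Each of these fits takes its spread from all 4 groups, and replicates differed more in the crizotinib and combination groups. IN10018 libraries lay above control for 4 members and below for 12, against 14% and 18.9% of all genes. NDUFA11 was at 1.36, 1.61 and 1.72 CPM and NDUFA13 at 5.37, 6.71 and 5.58 CPM, in both cases above all control libraries, with log2 differences of 0.35 (adjusted p = 0.718) and 0.42 (0.547) that were not called. A fit of only the 6 libraries compared called NDUFB8 higher by 0.66 (adjusted p = 0.0231), and UQCRFS1 lower at -0.21 (0.00515) and NDUFS1 lower at -0.14 (0.0455), where 8.34% and 5.58% of all genes were called higher and lower. NDUFB8 had a low mean level of 4.48 CPM over the 12 libraries and shares 33.8% of its exon bases with another gene on the same strand.

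With crizotinib alone, 32 of the 80 genes rose and 2 fell against control, where 20% of all genes rose and 17.6% fell. The median log2 change of the members was 0.27, against 0.08 over all genes and -0.02 over protein-coding genes. Complex I held 18 of the rises and both falls, ATP synthase 8 rises, and complexes III and IV 3 each, while no complex II gene was called. The groups did not overlap for 39 members upward and 6 downward, against 26.3% and 25.1% of all genes. With the GC and length offset the split was 18 higher and 7 lower, where 13.5% and 19.6% of all genes were called.

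NDUFA11 had the largest change with crizotinib, 1.38 ± 0.27 (adjusted p = 0.00371), at 2.84, 3.93 and 2.86 CPM. NDUFA13, a subunit also known as GRIM-19, was at 3.96, 5.07 and 4.2 CPM in control and 7.63, 11.8 and 6.74 CPM with crizotinib, a rise of 0.99 ± 0.23 (adjusted p = 0.00709). NDUFA3 was at 8.07, 9.30 and 8.29 CPM in control and 13.5, 21.9 and 12.9 CPM with crizotinib, a rise of 0.92 ± 0.21 (adjusted p = 0.0074). Crizotinib replicate 2 was the highest library in all 3 genes. UQCR11 rose by 0.88 ± 0.22 (adjusted p = 0.00985). These 4 genes were among the 9 of 32 rises that kept their call whichever of the 12 libraries was left out. The count of rises was 12, 14 and 12 without control replicate 1, 2 or 3, where 9.97%, 14.8% and 7.68% of all genes rose. Without crizotinib replicate 2 it was 10, with 1 fall, where 10.1% of all genes rose and 10.7% fell. Without crizotinib replicate 1 there were 8 falls, where 20% of all genes fell.

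Other crizotinib calls did not hold without particular libraries. ATP5F1D was at 16.1, 42.8 and 21.4 CPM and rose by 1.12 ± 0.36 (adjusted p = 0.0266), but the call was lost without crizotinib replicate 2 (log2 change 0.61, adjusted p = 0.193), control replicate 1 (1.09, 0.0795) or control replicate 3 (1.01, 0.0982), and with the offset (0.49, 0.104). NDUFS8 was at 66.6, 162 and 90.0 CPM and rose by 1.00 ± 0.26 (adjusted p = 0.0119), a call lost without control replicate 3 (0.91, adjusted p = 0.0538). COX4I1 was at 232, 435 and 297 CPM and rose by 0.76 ± 0.21 (adjusted p = 0.0139), a call lost without control replicate 3 (0.72, adjusted p = 0.0523) or crizotinib replicate 2 (0.47, adjusted p = 0.0502). In all 3 genes crizotinib replicate 2 was far above replicates 1 and 3.

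The 2 falls with crizotinib were core subunits of complex I. NDUFS1, at 230, 200 and 216 CPM, changed by -0.42 ± 0.11 (adjusted p = 0.0117), a call lost without control replicate 1 (0.0567) or with the offset (log2 change -0.09, adjusted p = 0.408). NDUFV2, at 3.67, 2.79 and 3.18 CPM, changed by -0.83 ± 0.24 (adjusted p = 0.0173), a call lost without control replicate 2 (0.0823) or crizotinib replicate 2 (0.0506). NDUFB4 was at 34.6, 10.4 and 21.2 CPM and SDHD at 35.4, 13.7 and 28.5 CPM with crizotinib, with replicate 1 inside or near the control range and replicate 2 far below it. Their log2 differences of -0.59 (adjusted p = 0.115) and -0.53 (0.101) were not called, and without crizotinib replicate 1 both were called, at -1.07 (adjusted p = 0.00398) and -0.82 (adjusted p = 0.0156). ATP5MC3, at 182, 86.6 and 118 CPM, had the same order of libraries and was called without crizotinib replicate 1 (-0.74, adjusted p = 0.00345).

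Adding crizotinib to IN10018, read as the combination against IN10018 alone, gave 46 higher and 11 lower of 80, with 29.7% and 27.5% of all genes called, and a median log2 change of 0.44 against 0.04 over all genes. The groups did not overlap for 48 members upward and 11 downward, against 34.8% and 32.8% of all genes. ATP5F1D was at 12.2, 10.8 and 11.7 CPM with IN10018 alone and its difference was 2.04 ± 0.36 (adjusted p = 0.000606). COX4I1 was at 171, 176 and 185 CPM and its difference was 1.30 ± 0.21 (adjusted p = 0.000433). NDUFB4, at 31.2, 31.4 and 35.0 CPM with IN10018, differed by -1.45 ± 0.30 (adjusted p = 0.00132), and SDHD, at 32.6, 34.3 and 34.8 CPM, by -1.02 ± 0.25 (adjusted p = 0.00395). SDHB differed by -0.20 (adjusted p = 0.108) and was not called, except without combination replicate 3 (-0.31, adjusted p = 0.0215) and with the offset (-0.31, adjusted p = 0.013). The comparison uses the same combination libraries as the one against control, so the values are set side by side and their likeness is not a result.

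Adding IN10018 to crizotinib, read as the combination against crizotinib alone, called 0 of 80 members in edgeR's test over the 12 libraries, with 19 (23.8%) at an unadjusted p under 0.05 against 21.6% of all genes, and called 0% of all genes higher and 0.0117% lower. DESeq2 and limma-voom also called 0 members. The median log2 difference of the members was 0.14. The groups did not overlap for 1 member upward and 4 downward, against 5.45% and 4.78% of all genes. Same-numbered crizotinib and combination libraries deviated together from their group means, with correlations of 0.20, 0.60 and 0.26 for replicates 1 to 3. Crizotinib replicate 1, however, deviated more with combination replicate 3 (0.40). A fit with the replicate number as a block within the 6 libraries compared was chosen after seeing the data. It called 23 members higher and 6 lower, where 12.1% and 11% of all genes were called. In that blocked fit ATP5F1D differed by 0.83 ± 0.13 (adjusted p = 0.000118), NDUFB7 by 0.71 ± 0.12 (adjusted p = 0.000565) and NDUFA1 by 0.68 ± 0.13 (adjusted p = 0.00196), all higher with the combination. NDUFB4 differed by -0.79 ± 0.16 (adjusted p = 0.00167) and SDHD by -0.56 ± 0.13 (adjusted p = 0.0048). Without crizotinib replicate 2 the unblocked fit called 29 higher and 9 lower, where 15% and 17.3% of all genes were called, and without that library and combination replicate 2 it called 20 and 9, where 10.9% and 14.4% of all genes were called.

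The interaction of the drugs, the departure of the combination from the sum of the single-drug log2 changes, called 0 of 80 members in edgeR's test, against 0.0585% of all genes higher and 0.0117% lower. DESeq2 and limma-voom also called 0. At an unadjusted p under 0.05 there were 2 genes (2.5%, against 8% of all genes), NDUFA2 (0.57) and COX6C (0.43), and the median over the members was 0.16. Without crizotinib replicate 2 it called 4 members higher and 2 lower, where 2.25% and 2.37% of all genes were called. Without that library and combination replicate 2 it called 13 and 2, where 5.41% and 5.71% of all genes were called.

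The signed log2 change of a member went with the GC content of its transcript. Over the 80 genes Spearman's rho between GC content and log2 change was 0.54 for crizotinib and 0.53 for the combination, and over 12473 protein-coding genes 0.60 and 0.63. These are descriptions across genes of the same libraries, which are not independent replicates. The median GC content was 51.2% for the 44 genes that rose with the combination, 42.6% for the 13 that fell and 47.2% for the 23 not called. The GC and length offset, which removes a smooth trend on both within each library, brought rho over the members to -0.02 for crizotinib and -0.03 for the combination. It also removes any true change that goes with GC content, and the part of library preparation in the trend was not tested.

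With the offset the members' median change with the combination was 0.16, against 0.41 without it. NDUFA11 (1.27), ATP5F1D (0.91), COX4I1 (1.30), NDUFS8 (0.92) and ATP5MC1 (0.64) stayed higher and NDUFB4 (-1.47), NDUFA12 (-1.29), SDHD (-0.95), NDUFV2 (-0.87) and UQCRC2 (-0.45) stayed lower. NDUFB7 and NDUFB11 (0.30, adjusted p = 0.057), both GC-rich, were no longer called. CYC1, called lower with the offset, is among the members of highest GC content. NDUFS5, higher by 0.39 without the offset, was called lower at -0.26, the only member called in opposite directions against control.

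**Figure D4:**
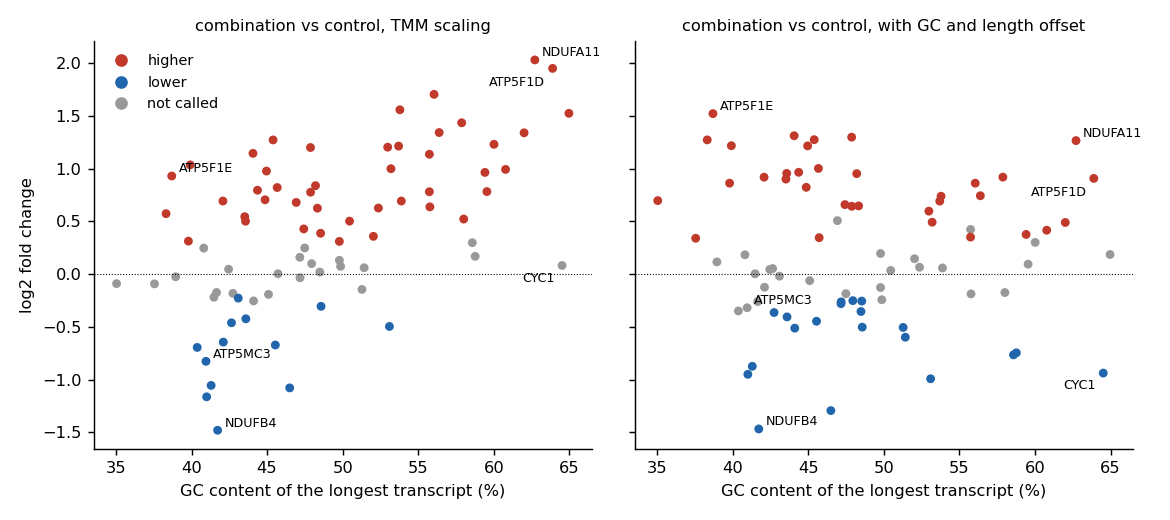
log2 fold change of the combination against control (y axis) by GC content of the longest transcript in percent (x axis) for the 80 genes, with TMM scaling (left) and with the GC and length offset (right), coloured by call. The upward slope on the left (rho 0.53) is absent on the right (rho -0.03), where NDUFA11 and ATP5F1D stay higher, NDUFB4 stays lower and CYC1 becomes lower.

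The other genes of the pathway, from lists set out beside the members, are read against the 33.7% of all genes that rose and 29.1% that fell with the combination. Of 49 assembly factors tested, 16 rose and 12 fell, with a median log2 change of -0.06, and the smallest p-values belonged to SURF1, a complex IV assembly factor (1.48), COX19, of copper delivery (0.90), and CMC2 (0.53). Of 15 genes of electron carriers and ubiquinone synthesis, 4 rose and 7 fell, with a median of -0.03. The smallest p-values belonged to COQ4 (1.25), ETFB, of the electron transfer flavoprotein (1.88), and COQ8B (1.00). Among the falls, named after their values were seen, were CYCS, cytochrome c (-0.80), PDSS1, of ubiquinone side chain synthesis (-0.80), and ETFA, the partner of ETFB (-0.53). Of 19 citric acid cycle and pyruvate dehydrogenase genes, 4 rose and 11 fell, with a median of -0.40, led by SUCLG2 (-0.68), DLAT (-1.38) and CS, citrate synthase (-0.95). These medians stand beside 0.10 over all genes tested and -0.06 over protein-coding genes. Of 12478 protein-coding genes 3826 rose and 4543 fell.

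Of 18 regulators of mitochondrial biogenesis, 3 rose and 10 fell with the combination. ESRRA, an orphan nuclear receptor of energy metabolism, rose from 28.3 ± 2.19 to 56.6 ± 9.43 CPM (SD, n = 3), a log2 change of 1.00. TFAM, which packages mitochondrial DNA and takes part in starting its transcription, fell from 148 ± 5.51 to 74.2 ± 11.3 CPM (-1.0). TFB2M, a mitochondrial transcription factor, fell from 26.9 ± 0.954 to 8.19 ± 0.732 CPM (-1.71). Of the 13 mitochondrially encoded subunits, 12 fell and none rose, with a median of -1.40, and the 3 smallest p-values were those of MT-ATP8 (-3.25), MT-ND4L (-2.13) and MT-ND2 (-2.0). MT-ND5, the member of that list that was not called, was at 5083 ± 71.7 CPM in control and 4602 ± 348 CPM in the combination. With the mitochondrial genes taken out of the table before scaling, all 57 calls on the nuclear members in the combination kept their direction. With crizotinib alone 20% of all genes rose and 17.6% fell, as did 2267 and 2862 of 12478 protein-coding genes. There the lists gave 12 higher and 3 lower for assembly factors, 4 and 2 for carriers, 2 and 7 for the citric acid cycle and 2 and 8 for regulators. None of the mitochondrially encoded subunits was called, and their median of -0.48 rested on libraries as far apart as 9.96% and 3.40% of reads.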

How the data were processed

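Bulk RNA-seq counts of 12 NUGC-4 libraries were analysed, 3 in each of 4 groups taken from the treatment labels. The authors deposited raw whole-number counts per gene. Per the labels' protocols, libraries were prepared from total RNA with a directional kit, and the submitters' processing notes name Trimmomatic, FastQC, HISAT2, featureCounts, DESeq2 and the GRCh38 build (hg38). Versions, the annotation release and whether counting used strand are not given in the sources used here. The members and the lists of other genes were chosen with earlier results of these data known.

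From the counts, 1 edgeR 4.0.16 quasi-likelihood fit (robust, TMM scaling, filterByExpr, R 4.3.3) over the 12 libraries, with a column per group, gave 6 comparisons. Benjamini-Hochberg adjustment ran over all 17096 genes tested, and a gene was called at an adjusted p under 0.05. SE is the absolute log2 fold change over the square root of F. Levels are CPM over library total times TMM factor, and RPKM uses exon length in GENCODE 29. Counting limits behind a level of 0 use 3 counts. Named members were, in each comparison, the 8 largest called changes each way at a mean log2 CPM of at least 1, and members fixed by role. ATP5ME was under that level. The test was checked on simulated counts drawn with 1 spread per gene for all 4 groups. That check does not cover the larger differences between replicates in the crizotinib and combination groups. Same-numbered crizotinib and combination libraries had residual correlations of 0.20, 0.60 and 0.26, all over 0.1, which is why that comparison is also given with a replicate block. Crizotinib replicate 1 correlated more with combination replicate 3 (0.40), and no label says what the numbers mean. DESeq2 1.42.0 and limma-voom (3.58.1) were among 11 alternatives, beside leaving out each of the 12 libraries. GC and length offsets were loess curves (span 0.3) on GENCODE 29 transcripts. GENCODE 29 held 96.52% of the deposited gene IDs. RefSeq promoters were matched by the deposited gene number. A gene is not reported here by name.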

Additional observations from a re-analysis of the deposited data

How the results depend on the processing

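Leaving out each library in turn gave 38 to 45 higher and 11 to 14 lower members for the combination against control, 40 to 47 and 8 to 11 for the combination against IN10018, 10 to 37 and 1 to 8 for crizotinib, 0 to 29 and 0 to 9 for the combination against crizotinib, 0 to 4 and 0 to 2 for the interaction, and 0 and 0 for IN10018. In the same order the share of all genes called was 25.4% to 35.1% and 24.8% to 30%, 20.6% to 31.1% and 23.4% to 28.8%, 7.68% to 25.4% and 7.74% to 20%, 0% to 15% and 0.0113% to 17.3%, 0.00564% to 2.25% and 0.00564% to 2.37%, and 0.00568% to 0.968% and 0.0342% to 0.309%. Below, the share of all genes stands in brackets. Of the combination calls against control, 37 of 44 rises and 10 of 13 falls were kept in all 12 such fits, against 9 of 32 rises and 0 of 2 falls for crizotinib. For IN10018 the 6 libraries compared alone gave 1 higher (8.34%) and 2 lower (5.58%), and the block with the GC and length offset 1 lower (1.28%). For crizotinib, higher members numbered 18 with the offset (13.5%), 20 with block and offset (15.2%) and 21 in the 6 libraries alone (14.6%), and lower members 8 without the low-count filter (8.25%), 7 with the block (20.6%), 7 with the offset (19.6%) and 14 with both (22.7%). For the combination against control, lower members numbered 20 with the offset (29.9%) and 21 with block and offset (31%). For the combination against crizotinib the counts were 9 and 4 without the filter (2.16% and 2.72%), 1 and 2 with block and offset (1.19% and 2.05%), 20 and 9 without crizotinib replicate 2 and combination replicate 2 (10.9% and 14.4%), and 23 and 6 with the block within those 6 libraries (12.1% and 11%), added after seeing the data. For the interaction they were 3 and 1 without the filter (0.49% and 0.348%) and 13 and 2 without those 2 libraries (5.41% and 5.71%).

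Among values called in the main setting or in the alternative, the sign turned only with the offset, alone or with the replicate block (second value of each pair): ATP5F1B against IN10018 -0.26 and -0.26; COX6B1 with crizotinib -0.13 and -0.13 and with the combination -0.19 and -0.18; COX8A -0.76 and -0.76; CYC1 with crizotinib -0.53 and -0.54, with the combination -0.94 and -0.94, against IN10018 -0.79 and -0.80 and against crizotinib -0.40 (block and offset only); NDUFS1 against IN10018 0.038 and 0.037; SDHC 0.053 and 0.053 and against IN10018 0.035 and 0.035; UQCRH -0.13 and -0.12. This list covers only the named members defined above. Of the other members, NDUFS5 was called higher with the combination (0.39) and lower with the offset (-0.26, adjusted p = 0.037). Against IN10018, NDUFB10 was called higher (0.26, adjusted p = 0.043) and lower with the offset (-0.51, adjusted p = 0.0061). The cause of these sign changes was not tested. The replicate block alone changed the count of calls by over 1.5 times for crizotinib falls and in no other comparison over the 12 libraries. What same-numbered libraries share is not given in the labels. Residual correlations by number were -0.025 to 0.15 between control or IN10018 and the crizotinib or combination libraries. Between control and IN10018 they were 0.0082 to 0.11. Among named members 4689 values stayed on their side of the threshold with no called value changing sign, 120 lost and 136 gained a call. Uncalled values near 0 could change sign.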
